A study of Mus musculus with 16 samples.

Results

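Levels of 7 transcription factor genes of T cells and natural killer (NK) cells, Tbx21, Eomes, Gata3, Prdm1, Id2, Id3 and Zeb2, were measured in the leukocytes of irradiated and untreated mouse tumors. The genes were chosen by name and are 7 of the 31053 features counted in each library. The cells were CD45+ live sorted leukocytes from subcutaneous MC38 (a colorectal carcinoma line) or Panc02-SIY (pancreatic adenocarcinoma cells made to carry SIY, a model antigen) tumors grown in C57BL/6J mice, young adults by the study's methods. Tumors of each line were left untreated (NT) or received radiation (RT) of 12 Gy in vivo and were taken 24 h later, and each of the 4 groups has 4 libraries, 16 in all. Every group shares the host strain, the site of implantation and the CD45+ sort. The lines differ from each other in tumor type, in the SIY antigen and, by the study's methods, in the number of cells implanted, all together. More cells were implanted of Panc02-SIY than of MC38. The labels do not tie a library to an animal, and the design text and the methods differ on the animals in a group (4 and 3), so some libraries of a group may share an animal and p-values measure the spread between libraries.

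Lineage transcription factors hold T and NK cells in their fates. The T-box factors T-bet (Tbx21) and Eomes drive the interferon and cytotoxic genes of CD8 T cells and NK cells, and Eomes marks conventional NK cells apart from type 1 innate lymphoid cells. GATA3 is the factor of type 2 helper T cells and is also used by regulatory T cells (Tregs). Blimp-1 (Prdm1) and ZEB2 are repressors that accompany terminal effector differentiation, and ZEB2 acts with T-bet in effector CD8 T cells and in mature NK cells. The Id proteins bind E proteins and keep them off DNA: Id2 is the form of effector and innate lymphocytes and Id3 the form of naive and memory-like T cells. In solid tumors these factors are used to place T cells between memory-like and terminal effector states.

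Zeb2 and Prdm1 were the members that passed the test in Panc02-SIY CD8 T cells, and the stretches of 150 bases that end just before their RefSeq starts are shown to give a reader the sequence next to these 2 starts. Zeb2 lies on chromosome 2 (44983512 to 45117442, minus strand) and has 4 starts, of which the one farthest upstream is used, and Prdm1 lies on chromosome 10 (44437174 to 44528558, minus strand), with all positions on mm10 (GRCm38.p6). The Prdm1 start used lies within the gene's annotated span. Both are read 5′ to 3′ on the gene's strand from RefSeq, Zeb2 at chr2:45117443-45117592 and Prdm1 at chr10:44458749-44458898, and capitals mark an E-box, the letters CANNTG, which read the same pattern on both strands.
Zeb2: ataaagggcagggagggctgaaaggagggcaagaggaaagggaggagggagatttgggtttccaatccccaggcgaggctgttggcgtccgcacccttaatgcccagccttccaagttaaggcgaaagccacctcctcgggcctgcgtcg
Prdm1: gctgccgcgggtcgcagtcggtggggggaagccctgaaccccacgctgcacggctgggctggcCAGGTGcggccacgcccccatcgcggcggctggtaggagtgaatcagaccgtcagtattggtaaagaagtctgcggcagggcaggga
The E-box of Prdm1 reads CAGGTG, the form that ZEB proteins are known to bind, and no E-box was found in the Zeb2 stretch. An E-box is present within 250 bases upstream of 66.2% of 32851 RefSeq starts. Prdm1 has 2 in that window, Tbx21 and Id2 have 1 each, and the other members have 0. The T-box core AGGTGT (11.8% of starts, searched on both strands) and the GATA letters AGATAA (9.99% of starts) were in none of the members' windows. CAGGTG shares letters with the T-box core, so an E-box followed by T would be counted for both.

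The T and NK clusters held 9370 of the 20768 barcodes kept, 9078 from Panc02-SIY and 292 from MC38. Each barcode sequence was kept only in the library of its tumor where it had the most UMIs (counted molecules), because 1239 of the 2632 distinct MC38 barcodes were found in more than 1 library and 769 in all 8, against 187 and 60 of 18136 in Panc02-SIY. The T and NK clusters came from a clustering that did not leave out the 7 members, and were clustered again without them, each tumor apart. Classes were named from fixed markers, none of them a member: 4844 barcodes were CD8 T cell-like, 216 CD4 T cell-like (Panc02-SIY only), 478 Treg-like, 1586 NK cell-like and 524 cycling-like, and 1722 were in clusters that could not be named. An MC38 library gave 19 to 71 T and NK barcodes and a Panc02-SIY library 479 to 1967, so values from MC38 rest on few cells. Library totals ran from 3240877 to 10121198 UMIs in MC38 and from 5327146 to 43776342 in Panc02-SIY. Levels are a gene's share of the UMIs of a class in a library (CPM, the usual counts scaled to a common total), given as the mean ± SD over libraries with at least 5 barcodes of the class. In sums over a class, fewer cells that express a gene and less RNA per cell cannot be told apart.

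Tbx21 and Eomes shared an order of mean levels over the classes, and each other member had its own. These orders are described here with no test, since clusters were made from the same cells, and in Panc02-SIY, where each class has 7 or 8 libraries. Eomes stood at 414 ± 65.6 CPM in NK cells (n = 8 libraries) against 16.4 ± 2.8 in CD8 T cells, 7.22 ± 5.11 in cycling cells (n = 7), 1.31 ± 3.72 in CD4 T cells and 0.94 ± 1.74 in Tregs. Tbx21 was highest in NK cells too (173 ± 31.7 CPM), above CD8 T cells (96.5 ± 13.2) by more than the larger SD, whereas cycling cells (85.0), CD4 T cells (58.1) and Tregs (57.8) followed without a step beyond the spread.

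Gata3 was highest in CD4 T cells, at 680 ± 319 CPM (n = 8), then Tregs at 249 ± 58.6 (n = 8), and NK cells (134), CD8 T cells (118) and cycling cells (83.7) followed with no step beyond the spread. The CD4 T class was a single cluster of 216 barcodes, whose leading genes included Ccl1, Csf2, Il13 and Gata3 itself. An unnamed cluster of 522 barcodes, with Cd4 (157 CPM) and Cd8a (305 CPM), held 243 CPM of Gata3. The level given is thus that of the named class and not of all CD4 T cells. Prdm1 was highest in Tregs, at 190 ± 72.0 CPM, against 80.0 ± 20.2 in NK cells, 74.7 ± 22.2 in CD8 T cells, 45.6 ± 16.8 in cycling cells and 27.96 ± 15.8 in CD4 T cells. Zeb2 was highest in NK cells, at 270 ± 76.4 CPM, with a step beyond the spread to CD8 T cells (81.9 ± 24.6), and CD4 T cells (74.9), cycling cells (44.1) and Tregs (31.97) followed with none. In MC38, Zeb2 in Tregs was 123 ± 78.5 CPM untreated and 177 ± 118 irradiated (n = 3 each), and in NK cells 119 ± 15.04 (n = 2) and 110 ± 65.4 (n = 4), so the mean in Tregs was not below that in NK cells there.

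Id2 was lowest in Tregs, at 502 ± 99.5 CPM, with a step beyond the spread to cycling cells (1126 ± 179) and another to NK cells (1531 ± 314), while NK cells, CD8 T cells (1673 ± 318) and CD4 T cells (1764 ± 476) did not separate. In MC38 CD8 T cells Id2 was 730 ± 370 CPM untreated and 829.3 ± 243 irradiated. The mean of Id3 in Panc02-SIY stayed between 1.40 and 8.11 CPM in every class. In MC38 it was 13.4 ± 23.3 CPM in untreated Tregs, on 2 UMIs, and 0 in irradiated CD8 T cells. Nearly all Id2 and Id3 transcripts counted in these classes were thus Id2: the mean Id2 share of the summed Id2 and Id3 UMIs was at least 93.3% in each class and group compared.

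**Figure D1:**
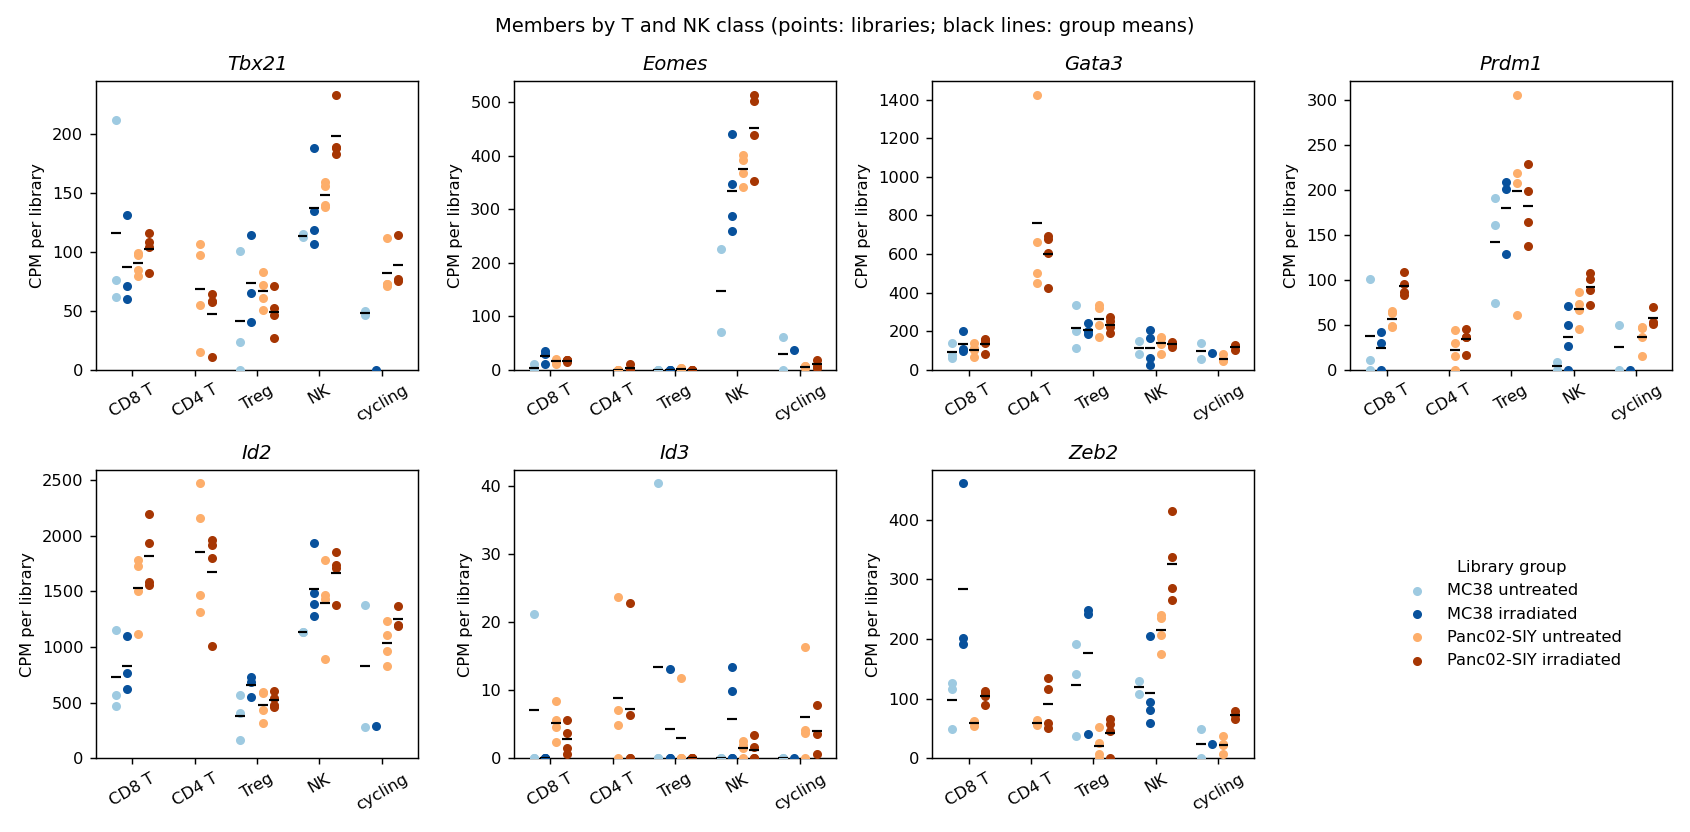
Levels of the 7 members in CPM (vertical axes, 1 panel a gene) for each T and NK class (horizontal axes), with a point for each library colored by group and a black line at the group mean. In Panc02-SIY, Eomes stands apart in NK cells (414 CPM on average), Gata3 in CD4 T cells (680), Prdm1 in Tregs (190), and Id2 is lowest in Tregs (502).

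The share of barcodes with a UMI gave the same picture when barcodes were thinned to 2000 UMIs and shallower ones left out. In Panc02-SIY this left out 37 of 1514 NK, 86 of 4782 CD8 T cell and 5 of 216 CD4 T cell barcodes. It also left out 134 of 401 Treg and 671 of 1896 neutrophil-like barcodes, so those shares cover the deeper barcodes only. In Panc02-SIY, Eomes was found in 762 of 1477 NK barcodes (51.6%, 95% Wilson interval 49.0 to 54.1) and in 147 of 4696 CD8 T cell barcodes (3.13%, 2.67 to 3.67), against 2 of 1225 neutrophil-like barcodes (0.163%, 0.0448 to 0.593), which should lack it. Median depths before thinning were 4362 UMIs in NK cells, 7390 in CD8 T cells and 2284 in neutrophils, and without thinning the shares were 74.2%, 7.55% and 0.264%. Gata3 was found in 116 of 211 CD4 T cell barcodes (55.0%, 48.2 to 61.5, against 7 of 1225 neutrophils) and Prdm1 in 83 of 267 Treg barcodes (31.1%, 25.8 to 36.9), where neutrophils, which transcribe it too, had 19.7%. Id3 was found in 41 of 4696 CD8 T cell barcodes (0.873%, 0.644 to 1.18) and 3 of 1477 NK barcodes (0.203%, 0.0691 to 0.595), of which the latter has an interval that overlaps that of neutrophils (0.163%, 0.0448 to 0.593). These intervals cover counting error only.

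To test the members between cell types without the clusters, barcodes were gated on a few genes, none of them a member, and the gates compared within libraries. These were surface-protein genes and Foxp3, a transcription factor gene, which set the Treg gate and had to be absent in the CD8 and CD4 T gates. NK gates were above CD8 T gates in Eomes by 3.31 on the log2 scale (SE 0.20, adjusted p = 2.1e-09, higher in 13 of 13 libraries), in Zeb2 by 1.29 (SE 0.13, 11 of 13) and in Tbx21 by 0.90 (SE 0.11, 10 of 13), all past an adjusted p of 0.1 and a fold of 1.3. In this comparison 30.8% of all genes tested passed these thresholds, so passing them was common, and 3 of 6 members tested did. Without irradiated Panc02-SIY replicate 2, Gata3 (0.41) and Id2 (0.47) passed as well, and Id2 passed without untreated Panc02-SIY replicate 4 (0.43) or irradiated replicate 4 (0.46). CD4 T gates were above CD8 T gates in Gata3 by 2.06 (SE 0.15, adjusted p = 2.1e-12, 10 of 10 libraries) and below them in Tbx21, by -0.68 (SE 0.19, lower in 8 of 10), and in Eomes, which averaged 1.54 ± 4.86 CPM against 59.7 ± 80.9 (lower in 10 of 10). Here 13% of all genes passed. The gates took barcodes of any cluster, so their levels need not match those of the classes, such as 16.4 ± 2.8 CPM of Eomes in Panc02-SIY CD8 T cells. Treg gates were above CD4 T gates in Prdm1 by 1.79 (SE 0.23, adjusted p = 5.7e-10, 9 of 9 libraries) and below them in Gata3 (-1.17, SE 0.17, 9 of 9) and Id2 (-1.77, SE 0.16, 9 of 9), against 13.7% of all genes. Zeb2 was not called between these gates, but was lower without untreated Panc02-SIY replicate 2 (-0.98, adjusted p = 0.035). These were edgeR quasi-likelihood tests with the library as a block and Benjamini-Hochberg adjustment over all genes.

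Genes of the wider lists were called between the gates as well. Over all genes, 30.8% passed between NK and CD8 T gates, 13% between CD4 T and CD8 T gates and 13.7% between Treg and CD4 T gates. In NK gates against CD8 T gates, 7 of 14 T-bet and Eomes effector genes tested were higher and 5 lower, with Gzma (granzyme A, 3.25) and Klrg1 (a receptor of mature NK cells, 3.09) among the higher and Gzmk (granzyme K, -4.37) among the lower. In CD4 T gates against CD8 T gates, 8 of 13 of these genes were lower and 0 higher, led by Prf1 (perforin, -4.99), and 3 of 4 GATA3-linked type 2 genes were higher, among them Il1rl1 (the IL-33 receptor, 3.28). In Treg gates against CD4 T gates, 6 of 30 other lymphocyte transcription factors were higher and 8 lower, with Tcf7 (a factor of naive and memory T cells) at -3.12 and Ikzf2 (Helios, a Treg factor) at 2.38.

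Radiation of Panc02-SIY tumors changed 3 of the members in at least 1 class, all upward: Zeb2 in CD8 T cells, NK cells and cycling cells, Prdm1 in CD8 T cells and Gata3 in cycling cells. These were 5 of the 30 tests of a member in a class that could be made in this tumor, and 0 were lower. Over all genes, 3.95% were called in CD8 T cells (172 higher and 256 lower) and 0.849% in NK cells (27 and 58). The shares were 9.28% in cycling cells (492 and 453), 0.366% in CD4 T cells and 0.346% in Tregs. The thresholds, an adjusted p below 0.1 and a fold above 1.3, were those of the study's own methods. For irradiated against untreated dendritic cells, the paper's supplementary figure used a log2 fold change above 0.58.

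Zeb2 in CD8 T cells of Panc02-SIY stood at 54.7, 60.9, 61.4 and 62.3 CPM in the untreated libraries and at 89.9, 110, 104 and 112 CPM in the irradiated ones. The groups did not overlap, and the rise from 59.8 ± 3.5 to 104 ± 10.1 CPM (log2 fold change 0.74, SE 0.14, adjusted p = 0.0016) was larger than the spread between libraries. In this class and contrast 3.95% of all genes were called. Left-out libraries moved the log2 fold change between 0.69 and 0.81 and ended no call, but with the CD8 T gate in place of the clusters the value was 0.59 with an adjusted p of 0.46.

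Macrophages hold more Zeb2 than T cells, so their RNA was measured in the same sums. C1qa, a complement gene of macrophages, stood in Panc02-SIY CD8 T cells at 2.29% of its macrophage level before radiation and at 1.80% after it. The same shares of macrophage Zeb2 (561 and 756 CPM in pooled macrophages) come to 12.8 and 13.6 CPM, against 61.1 and 108 CPM measured in the pooled class. The 12 myeloid and B cell markers together came to 458 to 997 CPM in the untreated and 531 to 1994 CPM in the irradiated libraries, with Cd79a (0.300 and 0.289 CPM) and Ms4a1 (0.150 and 0.0722 CPM), which define B cells, near 0 in the pooled class, and 0 of the 10 that could be tested were called. The median log2 fold change of those 10 was 0.41, against 0.02 over all genes. Panc02-SIY monocytes and neutrophils also hold Zeb2 (790 and 412 CPM) but less C1qa than macrophages (462 and 198 CPM), so the C1qa share does not cover their RNA. The part of such RNA in the rise was not tested. Without the 428 barcodes of the CD8 cluster that held most C1qa (826 CPM), a choice made after seeing the data, the rise of Zeb2 was 0.76 (adjusted p = 0.0012).

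The CD8 class of Panc02-SIY had 9 clusters, with 2808 untreated and 1974 irradiated barcodes pooled over the libraries. Untreated replicate 4 alone gave 1293 of these. The cluster counts that follow are not shares, so a lower count after radiation need not be a lower share of the class. A change in the clusters' shares was not tested between libraries. Clusters 9 and 4, with little Zeb2 (36.0 and 32.3 CPM), went from 414 to 61 and from 408 to 193 barcodes. Clusters 0 and 13, with more (85.5 and 157 CPM), went from 498 to 626 and from 171 to 229. The others did not all follow this order of Zeb2. Cluster 11 (118 CPM) went from 272 to 156, cluster 1 (62.0 CPM) from 633 to 309 and cluster 6 (48.9 CPM) from 296 to 235. Cluster 15 (76.8 CPM) went from 56 to 100 and cluster 16, with most Zeb2 (337 CPM), from 60 to 65. Fitted cluster by cluster, a choice made after seeing the data, Zeb2 was called higher in 2 of the 9: in cluster 13, from 99.4 ± 33.1 CPM (n = 4) to 252 ± 101 (n = 3, log2 fold change 1.06, SE 0.23, adjusted p = 0.0019, against 0.96% of all genes called), and in cluster 15, which had 56 untreated and 96 irradiated barcodes in the libraries used (2.50, SE 0.51, adjusted p = 0.0099, against 0.505%). In the other 7 it was not called, with log2 fold changes of -0.0039 to 0.69. The part of the clusters' shares in the rise over the whole class was not tested further.

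Prdm1 in the same cells stood at 47.2, 64.9, 63.3 and 48.7 CPM untreated and at 83.6, 95.04, 109 and 86.5 CPM irradiated. Again the groups did not overlap, with means of 56.0 ± 9.4 and 93.5 ± 11.3 CPM (log2 fold change 0.67, SE 0.18, adjusted p = 0.039). The call was lost without irradiated replicate 3 (0.61, adjusted p = 0.16) and with the CD8 T gate (0.53, adjusted p = 0.54). Prdm1 levels also differed between the clusters, at 51.4 and 46.7 CPM in clusters 9 and 4 and 98.4 and 168 CPM in clusters 0 and 13. Clusters 1, 6, 11, 15 and 16 held 51.2, 48.0, 51.5, 49.5 and 61.3 CPM. Within the 9 clusters Prdm1 was called in 0 (edgeR log2 fold changes of 0.01 to 1.93, lowest adjusted p = 0.23). The remaining members of CD8 T cells were not called: Tbx21 (0.11, SE 0.15), Eomes (0.02, SE 0.21), Gata3 (0.27, SE 0.23) and Id2 (0.18, SE 0.20) had adjusted p of 0.69 or more, and Id3 rested on 108 UMIs untreated and 33 irradiated (adjusted p = 0.47, or 0.098 and called lower without irradiated replicate 2).

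Zeb2 also rose in NK cells of Panc02-SIY, from 207, 239, 235 and 175 CPM untreated to 415, 338, 286 and 266 CPM irradiated. The lowest irradiated library was above the highest untreated one, and the means were 214 ± 29.6 and 326 ± 66.4 CPM (log2 fold change 0.56, SE 0.15, adjusted p = 0.046, where 0.849% of all genes were called). The call was lost without untreated replicate 1 (0.57, adjusted p = 0.12), untreated replicate 4 (0.52, 0.19), irradiated replicate 1 (0.47, 0.24) or irradiated replicate 2 (0.53, 0.18), with the NK gate (0.56, 0.68) and with 10 principal components (0.42, 0.20). It was also lost when a log2 fold change above 0.58 was asked for. Tbx21 in NK cells, at 138, 159, 140 and 156 CPM untreated and 188, 183, 233 and 189 irradiated, did not overlap between the groups but did not pass the test (0.37, SE 0.15, adjusted p = 0.37).

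The Panc02-SIY NK barcodes fell into 2 clusters with different Zeb2 levels, which were looked at apart after the data had been seen. In the larger one (387 untreated and 538 irradiated barcodes), with 74.8 CPM of Itga1 and 195 of Tcf7 where the other had 15.9 and 14.3, Zeb2 went from 126 ± 28.9 to 223 ± 44.1 CPM (n = 4 libraries each, log2 fold change 0.78, SE 0.15, adjusted p = 0.0032, against 1.44% of all genes called). In the other (150 untreated and 439 irradiated barcodes), Zeb2 was 492 ± 80.7 CPM untreated and 469 ± 40.2 irradiated (-0.11, SE 0.14, adjusted p = 0.96, against 0.164% called). Tbx21 was 217 ± 55.5 CPM in the untreated high-Zeb2 cluster and 129 ± 9.5 in the other, and Eomes 410 ± 50.9 and 367 ± 38.3. Whether the clusters differ in their response to radiation was not tested.

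**Figure D2:**
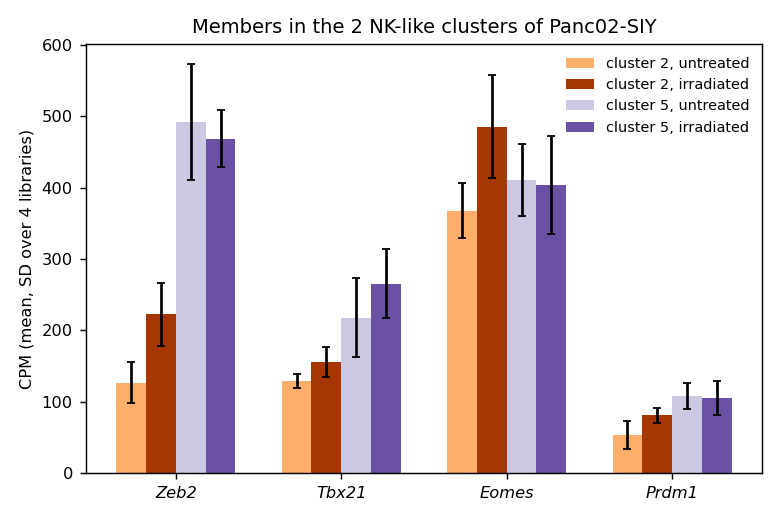
Levels of Zeb2, Tbx21, Eomes and Prdm1 in CPM (vertical axis, from 0) in the 2 NK-like clusters of Panc02-SIY before and after radiation, with bars at the mean and error bars of 1 SD over 4 libraries. Zeb2 went from 126 to 223 CPM in cluster 2 and was 492 and 469 CPM in cluster 5.

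In both groups most Panc02-SIY NK barcodes that held UMIs of Tbx21 also held Eomes, but so did most NK barcodes. Over both groups Eomes was found in 74.2% of all Panc02-SIY NK barcodes, and a tie between the genes was not tested. Of 537 untreated NK barcodes, 197 had both, 67 only Tbx21 and 206 only Eomes, and of 977 irradiated ones, 352 had both, 139 only Tbx21 and 369 only Eomes. The Tbx21 share of the summed Tbx21 and Eomes UMIs was 28.3 ± 2.4% untreated and 30.7 ± 3.1% irradiated in NK cells, and 85.1 ± 2.8% and 85.9 ± 0.9% in CD8 T cells (n = 4 each). Neither difference passed an exact permutation test (two-sided, p = 0.31 and 0.66, adjusted p = 0.96 in both, where the smallest p that 4 against 4 allows is 0.029), and the shift in NK cells was less than 1 SD of the irradiated libraries.

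In cycling cells of Panc02-SIY, Zeb2 went from between 7.4 and 37.7 CPM in the 4 untreated libraries to between 66.1 and 78.7 CPM in the 3 irradiated libraries that had enough barcodes (log2 fold change 1.15, SE 0.25, adjusted p = 0.0030). Gata3 went from 52.1, 80.6, 42.8 and 55.0 CPM to 130, 123 and 102 CPM (0.79, SE 0.21, adjusted p = 0.014). Neither pair of groups overlapped, in a class where 9.28% of all genes were called. Both calls were lost when barcodes under 500 genes or above 10% of mitochondrial UMIs were left out before clustering (Zeb2 0.52, adjusted p = 0.69, and Gata3 -0.02, adjusted p = 0.99). In CD4 T cells, where 0.366% of all genes were called, and in Tregs, with 0.346%, 0 of 5 members tested passed in each.

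**Figure D3:**
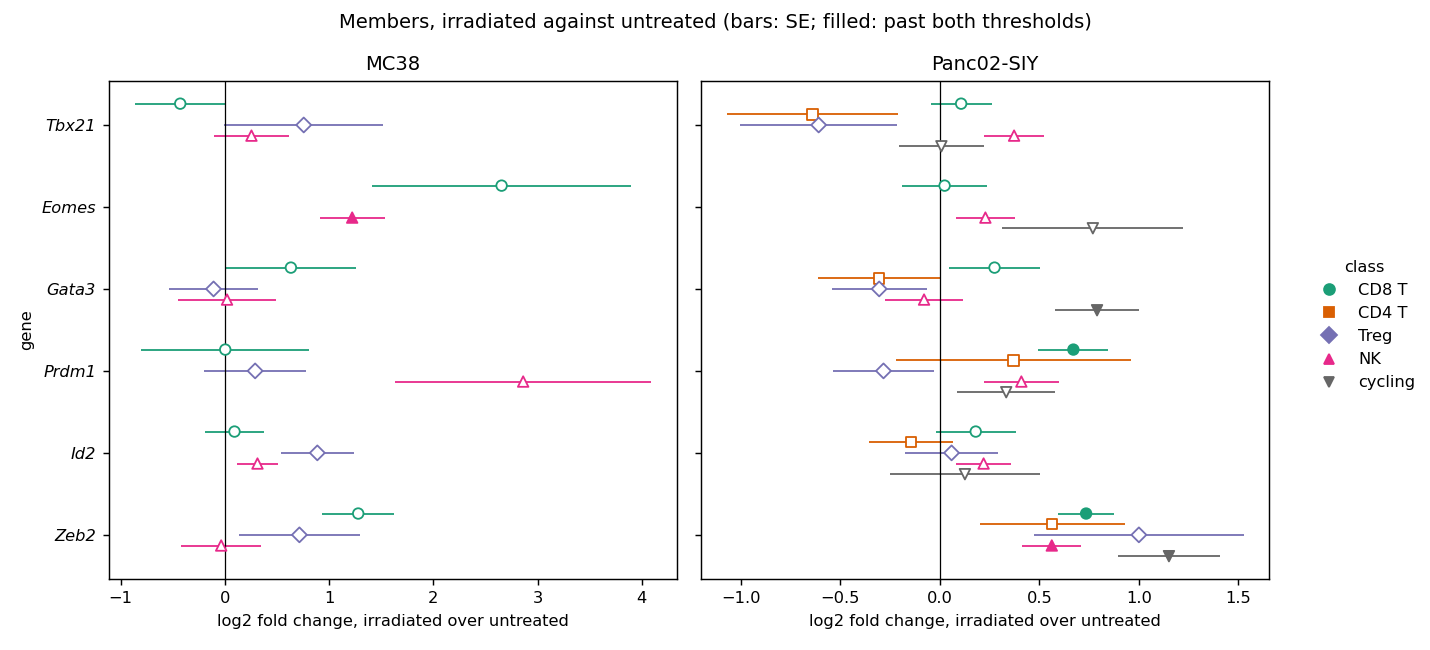
Log2 fold changes of 6 members (vertical axis) after radiation in MC38 (left) and Panc02-SIY (right), with a symbol for each class, bars of 1 SE and filled symbols for values past both thresholds. In Panc02-SIY, Zeb2 is filled in CD8 T cells (0.74), NK cells (0.56) and cycling cells (1.15). The value of Prdm1 in MC38 NK cells (2.86) rests on 1 UMI in the 2 untreated libraries used.

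Radiation of MC38 tumors changed 1 member in 1 class past the thresholds, of 18 tests made: Eomes in NK cells. It stood at 70.3 and 225 CPM in the 2 untreated libraries with at least 5 NK barcodes and at 260, 441, 287 and 348 CPM in the 4 irradiated ones (log2 fold change 1.22, SE 0.31, adjusted p = 0.040, against 0.509% of all genes). Untreated and irradiated libraries did not overlap, though these libraries hold 22 untreated and 43 irradiated NK barcodes. The value rests on untreated replicate 1, without which it was 0.54 (adjusted p = 0.81, with the lone untreated library taken to vary like the other groups), and the call was also lost without irradiated replicate 2 (1.10, adjusted p = 0.13), 3 (1.27, 0.11) or 4 (1.18, 0.13) and when every barcode was kept in every library (0.94, 0.35). Without untreated replicate 4 it was 2.21.

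Zeb2 in MC38 CD8 T cells stood at 126, 49.6 and 116 CPM untreated and at 460, 202 and 191 CPM irradiated. The groups did not overlap, but the difference (log2 fold change 1.28, SE 0.34, adjusted p = 0.11) missed the threshold, in a class where 0.526% of all genes were called. With every barcode kept in every library it was called (1.16, adjusted p = 0.043). The median mitochondrial share of these CD8 T cells was 2.8 to 9.4% in the untreated and 8.3 to 18.5% in the irradiated libraries, against 2.9 to 3.7% in all Panc02-SIY libraries, and its part in the result was not tested. In NK cells of MC38, Zeb2 was 109 and 130 CPM untreated and 94.6, 80.3, 59.4 and 206 CPM irradiated, with overlapping groups. In MC38 Tregs 0 of 5 members tested were called, against 0.214% of all genes.

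**Figure D4:**
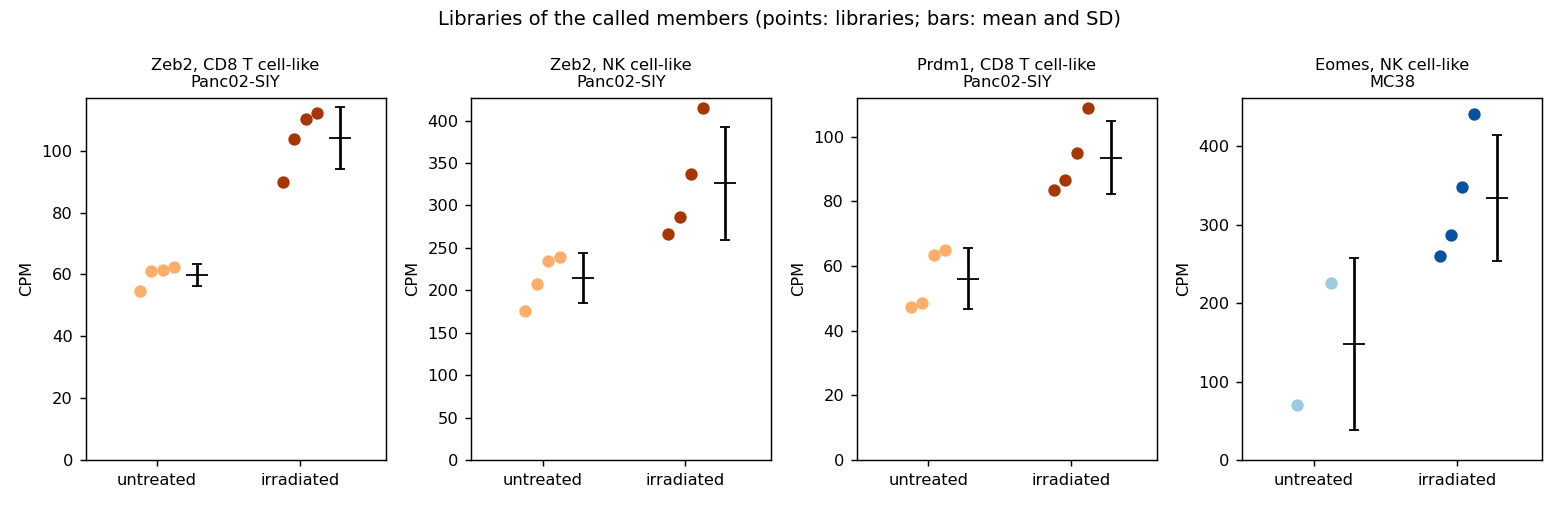
Levels in CPM (vertical axes, from 0) of 4 member and class pairs that passed the test after radiation, with a point for each library and the mean with 1 SD beside it. No irradiated library lies below the highest untreated one, and the MC38 panel has 2 untreated libraries (70.3 and 225 CPM).

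A difference between the tumors in the response to radiation was tested as an interaction. None of 18 tests of a member in a class passed in edgeR's quasi-likelihood fit, with 2 at an unadjusted p under 0.05: Eomes in NK cells (0.99 more on the log2 scale in MC38, SE 0.35, adjusted p = 0.43, or 1.98 with an adjusted p of 0.0078, a call, without untreated MC38 replicate 4) and Eomes in CD8 T cells, where the 3 untreated MC38 libraries used had 1 UMI. Over all genes, 0.00922% passed in CD8 T cells, 0.13% in NK cells and 0% in Tregs. For Zeb2 in CD8 T cells the interaction was 0.54 (SE 0.38, adjusted p = 0.82), so the response in MC38 was neither shown to differ from that in Panc02-SIY nor shown to be alike.

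Between the tumors, 6 of 25 tests of a member in a class passed among untreated and 6 of 18 among irradiated libraries, where 1.96% to 12.5% and 2.09% to 15.7% of all genes were called, by class. These contrasts also had shifted medians over all genes, between -0.11 and -0.32 on the log2 scale. Tumor, antigen, the number of cells implanted and the depth of the libraries cannot be told apart in them. Id2 in CD8 T cells was lower in MC38, at 467, 570 and 1153 CPM untreated against 1727, 1500, 1778 and 1117 in Panc02-SIY (-1.25, SE 0.25, adjusted p = 0.0026, where the median of all genes was -0.32 and 7.89% were called). After radiation it was 829.3 ± 243 against 1816 ± 302 CPM without overlap (-1.33, SE 0.25, adjusted p = 0.0017, median -0.24, 6.03% called). Of 9 genes of dissociation stress, 3 were called higher in MC38 CD8 T cells untreated and 4 irradiated (medians of 1.01 and 1.45), with summed levels of 2372 to 4844 CPM against 1206 to 1699 untreated and 2089 to 5761 against 1354 to 2169 irradiated, and their part in the difference was not tested. The untreated difference in Id2 was not called at resolution 2 (-0.81, adjusted p = 0.39), with 10 principal components (adjusted p = 0.13) or with the CD8 T gate (adjusted p = 0.40).

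In irradiated CD8 T cells, Zeb2 was higher in MC38 (284 ± 152 against 104 ± 10.1 CPM, 1.04, SE 0.24, adjusted p = 0.0073), a difference that turned to -0.21 at resolution 2 and was 0.04 when barcodes under 500 genes or above 10% of mitochondrial UMIs were left out. Prdm1 was lower there (24.0 ± 21.6 against 93.5 ± 11.3 CPM, -1.54, SE 0.50, adjusted p = 0.088), on 10 UMIs in 35 MC38 barcodes, with the lowest MC38 library at 0. This call was lost in 11 of 25 alternatives, some of them changes of processing. Among left-out libraries it was lost without irradiated MC38 replicate 1, 3 or 4 or irradiated Panc02-SIY replicate 2 or 3, with values of -2.22 to -1.36 and adjusted p of 0.11 to 0.37. In Tregs, Zeb2 was higher in MC38 both untreated (2.35, SE 0.67, adjusted p = 0.054, 2.86% of all genes called) and irradiated (2.07, SE 0.48, adjusted p = 0.011, 2.09% called). C1qa in MC38 Tregs stood at 7.75% and 5.63% of its macrophage level, and these shares of macrophage Zeb2 come to 32.4 and 29.4 CPM, of 128 and 202 CPM measured in the pooled class. Of the 7 myeloid and B cell markers tested in Tregs, 4 were called higher in MC38 untreated and 7 irradiated (medians of 2.41 and 2.75), the 12 listed came to 2212 to 3646 CPM in MC38 against 458 to 1599 CPM in Panc02-SIY, and Cd79a and Ms4a1 were at 0 in MC38. In the untreated contrast 3 of 7 stress genes were called higher too, and the part of these markers in the difference was not tested. Libraries of the 2 tumors overlapped in both contrasts, and the irradiated call was lost with every barcode kept in every library (0.45, adjusted p = 0.70) and, with adjusted p of 0.12 to 0.18, without likely doublets, with the cell filter, at resolution 2 and with 10 principal components. The untreated Treg call was lost with gates (0.41, adjusted p = 0.95), at resolution 2 (1.71, 0.30), with 10 principal components (2.16, 0.20), when thinned (2.29, 0.17) and without likely doublets (2.51, 0.11). It was also lost without MC38 replicate 1 (1.91, adjusted p = 0.25) or 3 (2.22, 0.18) or Panc02-SIY replicate 3 (1.98, 0.10).

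The NK class of MC38 had less Zeb2 and less Prdm1 than that of Panc02-SIY. The tumors were clustered apart, so these classes may not hold like cells. The MC38 class was a cluster of 72 barcodes led by Gzmc and Xcl1, with 125 CPM of Zeb2 and 18.8 of Prdm1. In Panc02-SIY the cluster led by the same genes (440 barcodes) could not be named and was outside the NK class. It held 53.9 CPM of Zeb2 and 16.9 of Prdm1, and its part in the differences was not tested. Zeb2 after radiation was 110 ± 65.4 against 326 ± 66.4 CPM (-1.41, SE 0.25, adjusted p = 3.6e-06, 15.7% of all genes called) and the libraries did not overlap. The myeloid and B cell markers were higher in MC38 NK cells, with 5 of 10 called untreated (median 1.73) and 8 called higher and 1 lower irradiated (median 2.59), and C1qa stood at 2.01% and 3.46% of its macrophage level against 0.639% and 0.486% in Panc02-SIY. The 12 listed came to 722 to 2395 CPM in MC38 against 103 to 304 CPM, with Cd79a and Ms4a1 at 0 in MC38, and their part in the differences was not tested. The untreated difference in Zeb2 (-0.81, adjusted p = 0.070, 12.5% called) was -0.07 when every barcode was kept in every library (adjusted p = 0.93) and was not called without Panc02-SIY replicate 2 (-0.76, adjusted p = 0.12) or 3 (-0.75, 0.13) or MC38 replicate 1 (-0.69, 0.51) or 4 (-0.93, 0.12). Prdm1 after radiation was 36.8 ± 30.4 against 92.4 ± 15.8 CPM (-1.62, SE 0.44, adjusted p = 0.0057), lost without irradiated MC38 replicate 4 (-0.99, adjusted p = 0.18), and the 2 untreated MC38 libraries used held 1 UMI of Prdm1, while replicate 2, not used for its 4 NK barcodes, held 2 (54.4 CPM). The untreated difference in Prdm1 had an adjusted p of 0.00056, or 0.17 without untreated MC38 replicate 1. Eomes was lower in untreated MC38 NK cells (147.7 ± 109.5 against 375.8 ± 26.6 CPM, -1.40, SE 0.28, adjusted p = 0.00011) but not without MC38 replicate 1 (-0.71, adjusted p = 0.38), and the groups overlapped after radiation (-0.40, adjusted p = 0.17). The last of the 12 calls was Eomes in untreated cycling cells (2.76, SE 0.69, adjusted p = 0.021, 1.96% called). It stood at 60.6 and 0 CPM in the 2 MC38 libraries used, and without the first of these it was not called. The cycling classes may not hold like cells either. The MC38 cluster (22 barcodes) held 164 CPM of Ncr1, an NK receptor, and 355 of Cd8a, against 12.6 and 713 CPM in that of Panc02-SIY (502 barcodes). The part of this in the difference was not tested.

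Other lymphocyte transcription factors mostly did not pass after radiation: 0 of 36 tested in Panc02-SIY CD8 T cells, 0 of 36 in MC38 CD8 T cells, and in Panc02-SIY 0 of 28 in CD4 T cells, 1 of 29 in Tregs (Bhlhe40, 0.92) and 1 of 34 in NK cells, where Tcf7, the factor of memory-like cells, fell by 0.83. The shares of all genes called were 3.95%, 0.526%, 0.366%, 0.346% and 0.849% in these classes, in turn. Counts of 0 or 1 in lists of this size lie near those shares. In cycling cells 7 of 36 rose, among them Bach2 (1.46) and Rora (1.01), in a class where 9.28% of all genes were called. E proteins, the partners of Id2, had 1 of 4 called in Panc02-SIY CD8 T cells (Tcf12, 0.47) and 1 of 4 in cycling cells (Tcf12, 0.62). Among T-bet and Eomes effector genes, Panc02-SIY NK cells had 2 of 15 higher, Gzmb (granzyme B, 1.04) and Prf1 (0.67), and 1 lower, the chemokine receptor Cxcr3 (-1.30). CD8 T cells had 0 of 14 and cycling cells had 3 of 14 higher, Cx3cr1 (a chemokine receptor, 1.22), Itga1 (an integrin, 0.99) and Fasl (Fas ligand, 0.79). MC38 NK cells had Prf1 higher (1.06) and Xcl1, a chemokine that attracts dendritic cells, lower (-2.60), against 0.509% of all genes called. Of GATA3-linked type 2 genes, Il10 rose in Panc02-SIY CD8 T cells (1.47). The 2 NK clusters of Panc02-SIY held 195 and 14.3 CPM of Tcf7 and went from 387 to 538 and from 150 to 439 barcodes. Prf1 was among the leading genes of both and Gzmb of the second only. The part of the clusters in the NK changes of Tcf7, Gzmb and Prf1 was not tested.

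Of 10 known targets of p53, which respond to DNA damage, all 9 tested were called higher in Panc02-SIY CD8 T cells and in cycling cells, 5 of 9 in CD4 T cells, 5 of 9 in Tregs and 0 of 9 in NK cells, and in MC38 5, 3 and 2 of 9 were called in CD8 T cells, NK cells and Tregs. The shares of all genes called were 3.95%, 9.28%, 0.366%, 0.346% and 0.849% in these Panc02-SIY classes, in turn. In those of MC38 they were 0.526%, 0.509% and 0.214%. The median log2 fold change of the p53 targets was 1.49 in Panc02-SIY CD8 T cells and 0.30 in NK cells, against 0.02 and -0.0015 over all genes. CD8 T cells were 57.6 ± 8.5% of T and NK barcodes in untreated Panc02-SIY and 40.8 ± 13.5% after radiation, and NK cells went from 13.1 ± 5.2% to 24.1 ± 7.4% (exact permutation tests, p = 0.086 and 0.057, adjusted p = 0.30 in both, where the smallest p possible is 0.029).

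Within CD8 T cells of Panc02-SIY the members varied by cluster. The cluster of 125 barcodes with most Zeb2 held 337 CPM of it and 59.6 CPM of Eomes, and the cluster of 601 barcodes with least Zeb2 held 32.3 and 3.74 CPM. Prdm1 (168 CPM) and Id2 (2702 CPM) were highest in a cluster of 400 barcodes, and Id3 (16.3 CPM) in one of 531 barcodes. Among clusters that could not be named, one of 440 Panc02-SIY barcodes with both Itga1 (266 CPM) and Ncr1 (453 CPM), an NK receptor, had 145 CPM of Tbx21, 100 CPM of Eomes and 53.9 CPM of Zeb2. An unnamed cluster of 666 barcodes, led by Klra7, Ikzf2 and Cd7, had 30.8 CPM of Id3, 509 CPM of Id2 and 27.5 CPM of Zeb2. It held 321 CPM of Tcf7, 493 of Cd3e and 141 of Trdc, a gene of gamma delta T cells. The 2 Panc02-SIY NK clusters also held Trdc (70.7 and 59.2 CPM), so Trdc does not name this cluster.

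Outside the T and NK classes, Tbx21, Eomes and Gata3 stayed at or below 13.4 CPM on average in macrophage-, monocyte-, neutrophil-, B cell-, cDC- and mast cell or basophil-like clusters. Zeb2 reached 679 ± 121 CPM in Panc02-SIY macrophages, 790 ± 45.1 in monocytes and 412 ± 84.6 in neutrophils (n = 8 libraries each). Id2 was 1659 ± 289 CPM in cDCs (n = 8) and 1531 ± 314 CPM in Panc02-SIY NK cells, within the spread.

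The genes whose levels followed each member most closely over 16 pools of a class and a group were found by the Pearson correlation of log2(CPM + 10). For Eomes these were Adamts14 (0.98), Klrb1c (0.98) and Klri2 (0.97), of which Klrb1c encodes NK1.1. For Tbx21 they were Lrrk1 (0.91), Chsy1 and Gm14029 (0.90 each), for Gata3 Rasgrp1 and Irf2bp2 (0.90 each) and Tmem64 (0.88), for Prdm1 Lrp10 and Fut8 (0.94 each) and Cyld (0.93), for Id2 Pde3b, Gm29243 (0.90 each) and Bcl2 (0.89), and for Zeb2 Upf1 (0.87), BC005561 (0.84) and Camk2n1 (0.80). The pools share libraries and depth, and the values are a description. Id3 was below the 20 CPM needed for this measure.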

How the data were processed

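Live CD45+ cells from tumors were measured in 16 libraries (10x Genomics 3' chemistry), 4 in each of 4 groups. The deposited values are UMI counts per gene and barcode that the authors made with Cell Ranger 3.1.0 after bcl2fastq 2.20.0 on mm10 (submitters' processing notes). Groups came from the labels. The members, gene lists and tests were chosen with earlier results of these data known. Each barcode was kept in the library of its tumor where it had the most UMIs. Barcodes were clustered with scanpy 1.11.5 and leidenalg 0.10.2 (2000 variable genes, 30 principal components, 20 neighbors, resolution 1). The first clustering, which set the T and NK barcodes, did not leave out the members. T and NK barcodes were clustered again in each tumor apart, without the members. Clusters were named from fixed markers by a rule set after seeing the data. It asked for 3 or more markers. T and NK classes also needed a mean share of at least 0.5 of the highest cluster's marker levels, and a gap of 0.1 to the next class. For cycling cells the share of 0.5 was enough. Scrublet's automatic threshold marked 0.395% of barcodes and was not relied on. An alternative removed the top 5% of scores.

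Counts were summed per library and class (at least 5 barcodes). edgeR 4.0.16 (R 4.3.3) quasi-likelihood tests with TMM scaling, a minimum count of 3 and a minimum total of 15 were fitted over all 4 groups, with Benjamini-Hochberg adjustment over all genes. Calls needed an adjusted p below 0.1 and a fold above 1.3. Gates were tested with the library as a block. The count fits were tested on simulated data. Shares and balances had exact two-sided permutation tests. Named genes were all members, at most 4 called genes with the largest fold per list and contrast, and 3 genes of most similar level per member; cluster marker genes, and genes of the lists given beyond these, were chosen after their values were seen. Alternatives covered barcode handling, depth, doublets, clustering, gates, scaling, filters, DESeq2 1.42.0, thresholds, a replicate block and leaving out each library. Library totals were 3240877 to 43776342 UMIs, and an MC38 library held 19 to 71 T and NK barcodes.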

Additional observations from a re-analysis of the deposited data

Results flagged for a closer look

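Of 60 sets of 4 libraries of one member, class and group, 5 had 1 library apart from the others by more than Dixon's 95% critical value, and chance gives about 1 in 20. Eomes in irradiated Panc02-SIY CD8 T cells was 14.6 CPM in replicate 2 and 17.3 to 17.7 in the others. In irradiated Panc02-SIY CD4 T cells, replicate 4 had 10.4 CPM of Tbx21 against 57.8 to 64.2, and 1011 CPM of Id2 against 1803 to 1961. Tbx21 in irradiated Panc02-SIY NK cells was 233 CPM in replicate 3 and 183 to 189 in the others. Tbx21 in untreated Panc02-SIY cycling cells was 112 CPM in replicate 1 and 71.4 to 73.2 in the others.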

How the results depend on the processing

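Of 27 called results for a member, 11 kept direction and call under every alternative run, among them Zeb2 lower in irradiated MC38 NK cells. Over all alternatives 617 of 695 values kept both, 75 lost the call and 3 turned direction: Gata3 in Panc02-SIY cycling cells with the cell filter (-0.024), Zeb2 between irradiated CD8 T cells at resolution 2 (-0.21), and Eomes between untreated cycling cells without MC38 replicate 1 (-5.92, a fitted value for a library at 0, in a left-out range of -5.92 to 3.14). The cause was not tested. Of 99 results not called, 83 stayed so. Calls after radiation of MC38 numbered 1, and 0 when thinned, at resolution 2, with 10 principal components, with gates, with only the 2 groups fitted or with at least 10 barcodes, and 2 with no filter, a minimum count of 10, DESeq2 or the replicate block. Calls after radiation of Panc02-SIY numbered 5, and 3 with the cell filter and 0 with gates, which have no cycling class. Calls between untreated tumors numbered 6, and 3 with the cell filter, at resolution 2 or with at least 10 barcodes and 1 with gates, and between irradiated tumors 6, and 2 with 10 principal components and 3 with gates. Leaving out 1 library gave 0 to 1 calls after radiation of MC38, 4 to 5 in Panc02-SIY, 2 to 7 between untreated and 4 to 7 between irradiated tumors, 0 to 1 interactions, and 3 to 5, 3 to 3 and 3 to 4 between the NK and CD8 T, CD4 and CD8 T, and Treg and CD4 T gates. Beside those given above, calls gained this way included Id2 in untreated cycling cells without MC38 replicate 1 (-2.74), Prdm1 in untreated CD8 T cells without MC38 replicate 2 (-3.45) and Eomes in irradiated NK cells without Panc02-SIY replicate 1 (-0.54). Same-numbered Panc02-SIY libraries deviated together for some numbers, with correlations up to 0.50 (CD8 T cells) and 0.29 (NK cells) for replicate 4, but the lowest were -0.05 and 0.01 and not every library correlated best with its own number, so the numbers were not taken as pairs. With the replicate block, Zeb2 in MC38 CD8 T cells passed (adjusted p = 0.051) and Eomes between untreated cycling cells did not (2.31, adjusted p = 0.37), and no other call changed.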
